A study of Mus musculus with 9 samples.

Results

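The 10 genes described here, Nfe2l2, Gclc, Gclm, Gsr, G6pdx, Gpx4, Txnrd1, Srxn1, Nqo1 and Hmox1, encode the transcription factor NRF2 and enzymes of glutathione, thioredoxin, quinone and haem metabolism. They were taken from a list of antioxidant genes by matching the Ensembl identifier of each count to its symbol, and they are 10 of the 48440 genes counted. All 10 passed the filter on low counts and were among the 20838 genes tested.

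Polyadenylated RNA was sequenced from J1 mouse embryonic stem cells, an established line, in 3 groups of 3 libraries that the labels call biological replicates. All 9 libraries carry the same Suz12-AID genotype, in which SUZ12, a core subunit of the histone methyltransferase complex PRC2, bears a degron tag that lets auxin trigger destruction of the protein. Mock cells were the comparison group, Auxin cells received 50 µM indole-3-acetic acid for 96 h, and Reintroduction cells had the auxin washed out for 4.5 h. All were grown on gelatin in medium with serum, LIF, PD0325901, CHIR99021 and the thiol 2-mercaptoethanol. The sources used here do not say whether the tagged line is 1 clone or what the Mock cells received, and a group without the tag that was given auxin was not analysed here, so an effect of auxin itself and an effect of SUZ12 loss cannot be told apart.

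NRF2, encoded by Nfe2l2, is held at low levels in unstressed cells by KEAP1, which hands it to a ubiquitin ligase. When electrophiles or oxidants modify KEAP1, NRF2 accumulates, pairs with a small MAF protein and binds antioxidant response elements beside genes for glutathione synthesis, NADPH supply and detoxification. NRF2 is regulated mostly at the protein level, so the mRNA of Nfe2l2 and the mRNAs of its target genes are separate measurements.

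Promoter windows are shown first because several of the 10 genes are textbook NRF2 targets. RefSeq windows of 300 bases, from 250 before to 50 after a transcription start on GRCm38.p6, the assembly that mm10 names, were found for 7 of the 10 genes (Nfe2l2, Srxn1, Gclm, Nqo1, Gpx4, Txnrd1 and G6pdx), which together have 12 windows. The core of the antioxidant response element, TGACNNNGC, was searched on both strands and occurred in 12.4% of the 32851 windows of all genes, and in at least 1 window of 14% of genes. It occurred in 5 of the 7 genes: 240 bases before the start in Nfe2l2, 134 before it in Gclm, 92 before it in Txnrd1, 57 before it in G6pdx and 29 after it in Srxn1. The AP-1 type letters TGANTCA, a near relative that does not contain the longer motif, occurred in 7.81% of all windows and only in Srxn1 among the 7 genes, 102 and 45 bases before its start. The stretches below are read 5′ to 3′ on the gene's strand, with the matched letters in capitals; where the match lies on the opposite strand the capitals show its reverse complement. They are from chr2:75704855-75704913 (minus strand), chr3:122245383-122245471, chr10:82859074-82859162 and chr2:152105402-152105505 (plus strand), in that order. The capitals for Srxn1 are its TGANTCA letters, and its TGACNNNGC match lies outside the stretch shown. Each match is a description of letters and not of a bound site.
Nfe2l2: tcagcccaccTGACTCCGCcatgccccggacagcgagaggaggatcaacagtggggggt
Gclm: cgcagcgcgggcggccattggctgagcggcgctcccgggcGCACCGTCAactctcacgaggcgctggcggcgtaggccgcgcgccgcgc
Txnrd1: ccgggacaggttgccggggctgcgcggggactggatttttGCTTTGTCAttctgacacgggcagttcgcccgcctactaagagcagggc
Srxn1: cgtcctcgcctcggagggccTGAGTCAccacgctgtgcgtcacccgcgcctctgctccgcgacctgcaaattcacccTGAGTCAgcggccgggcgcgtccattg

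The libraries held between 44341283 and 113931419 counts assigned to genes, in which both mates of a pair were counted, and each of the 10 genes had between 1600 and 39137 counts in every library. The Suz12 mRNA was at 122 to 173 normalised counts per 1000000 (CPM) in all 9 libraries; the degron acts on the protein, so this level does not check it. A length trend was measured across 10177 protein-coding genes with a mean log2 CPM above 2. Each gene's mean over the 9 libraries was first subtracted from its log2 CPM. The relative values changed per doubling of exon length by -0.25 to -0.17 in Mock and 0.01 to 0.15 in Auxin. In Reintroduction the change was 0.08 to 0.10, so a trend with transcript length moved with the groups. Mitochondrial genes took 4.58 to 4.80% of counts in Reintroduction, against 3.79 to 4.0% in Mock and 3.79 to 3.96% in Auxin. Auxin replicate 2 stood apart from the other Auxin libraries in this trend, at 0.01 against 0.15 for each of the others, and without it the calls on the 10 genes were the same except for Nqo1. The 3 groups had summed embryonic stem cell markers of 5543 to 5668 CPM (Mock), 6783 to 7287 CPM (Auxin) and 5310 to 5409 CPM (Reintroduction), with none of the 8 markers at 0. Relative to Mock, Auxin libraries had 6 of these higher and 2 lower, the latter being Pou5f1, at mean levels of 844 and 583 CPM in Mock and Auxin, and Dppa5a, at 412 and 184 CPM. Of 7 primitive endoderm markers, 7 were higher in Auxin than in Mock, at summed levels of 6.0 to 7.47 CPM in Mock, 22.8 to 23.6 in Auxin and 14.2 to 16.0 in Reintroduction. Trophoblast, fibroblast and neural markers summed to at most 3.89, 0.748 and 127 CPM in any library, the neural sum being mostly Tubb3. In Auxin against Mock, 2 of 4 tested trophoblast markers were higher and 2 lower. Of 6 neural markers 1 was higher and 3 lower, and of 2 tested fibroblast markers 1 was lower. All these marker counts use the test described below, which called 38.4% of all genes tested higher and 34.8% lower in that comparison. The part of the length trend, the mitochondrial share and these markers in the results below was not tested beyond removing the length trend, and in bulk RNA fewer cells of a type and less RNA per cell cannot be told apart.

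Auxin against Mock asks what differed after the degron was triggered, Reintroduction against Auxin what differed after the washout, and Reintroduction against Mock what was still different from the start. A gene was called when edgeR's quasi-likelihood test, fitted on all genes and all 9 libraries, gave a Benjamini-Hochberg adjusted p under 0.05. In Auxin against Mock, 9 of the 10 genes were called, 7 higher and 2 lower, where 73.2% of all genes tested were called (38.4% higher and 34.8% lower). In Reintroduction against Auxin, 8 were called, 3 higher and 5 lower, beside 50.9% of all genes (25.5% in each direction). In Reintroduction against Mock, 9 were called, 6 higher and 3 lower, beside 68.1% of all genes (34.7% higher and 33.4% lower). With this much of the transcriptome called, the number of called members is not a result about them, and the sizes and directions are given instead. The median log2 fold change of the 10 genes was 0.48 in Auxin against Mock, beside 0.05 over all genes tested, -0.14 after the washout, beside 0.003, and 0.37 in Reintroduction against Mock, beside 0.03. Scaling to total counts without TMM moved the median over all genes to 0.26 in Auxin against Mock, with 63.3% of calls higher in place of 52.4%, and to 0.16 in Reintroduction against Mock.

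**Figure D1:**
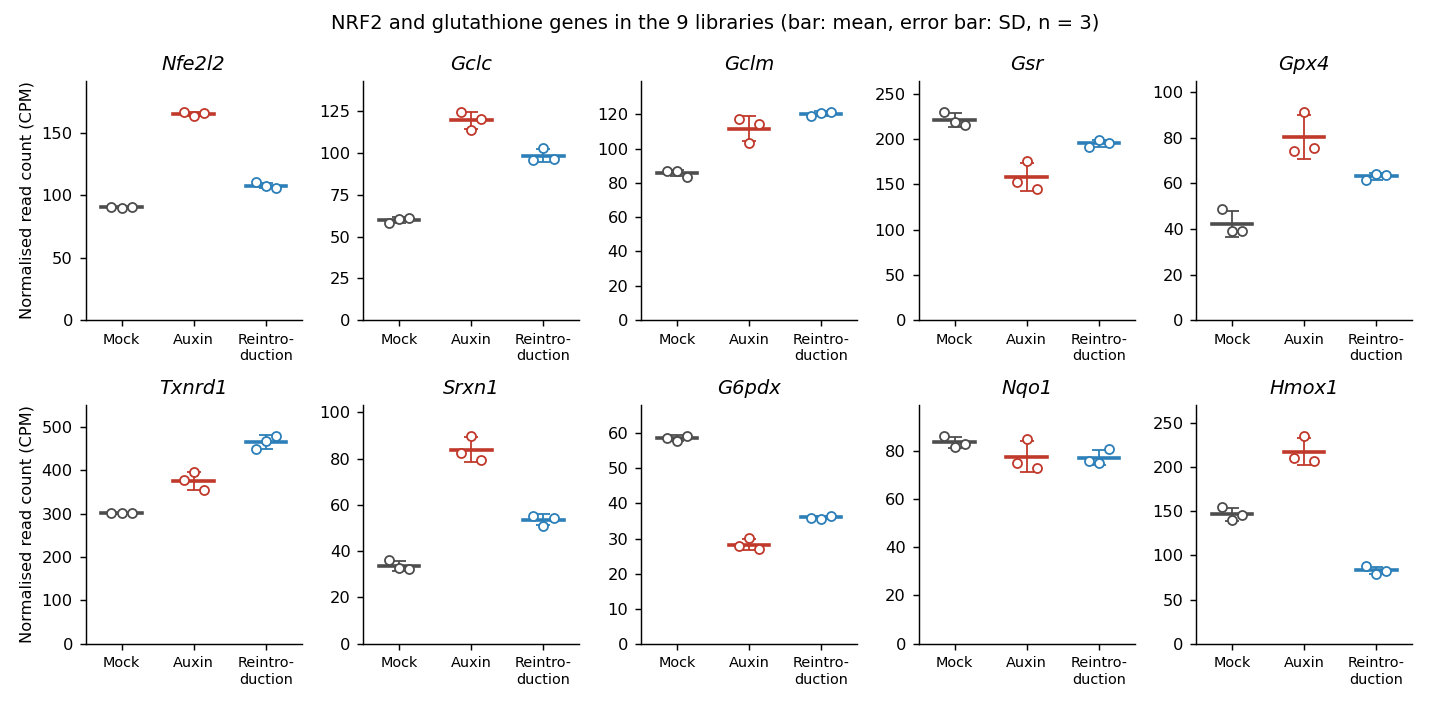
Normalised read counts (CPM, y axis, from 0) of the 10 genes in the 3 Mock, 3 Auxin and 3 Reintroduction libraries; points are libraries, thick bars means and thin bars SD. Nfe2l2, Gclc, Gpx4 and Srxn1 were highest in Auxin and between the others in Reintroduction, Txnrd1 and Gclm had their highest means in Reintroduction, and Hmox1 was highest in Auxin and lowest in Reintroduction.

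Nfe2l2, the gene for NRF2 itself (ENSMUSG00000015839.6; mm10, chromosome 2, 75675513 to 75704641, minus strand), had 90.5, 89.7 and 90.5 CPM in the Mock libraries. It had 166, 163 and 166 CPM in Auxin and 110, 107 and 106 CPM in Reintroduction. The 3 groups did not overlap, and the Auxin libraries lay well above both others. The mRNA was higher in Auxin than in Mock by 0.87 log2 units (SE 0.04, adjusted p = 1.39e-08), a 1.83-fold difference. It fell by 0.62 from Auxin to Reintroduction (SE 0.04, adjusted p = 8.58e-07) and was still 0.26 above Mock (SE 0.04, adjusted p = 0.000343). That last difference was called under all 20 alternatives and ranged from 0.17, with length and GC trends removed, to 0.39 with total counts. Of all genes tested, 23.5% had a log2 fold change at least as high in Auxin against Mock and 16.0% one at least as low after the washout.

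The first step of glutathione synthesis is catalysed by glutamate-cysteine ligase, whose catalytic subunit is Gclc (chromosome 9, 77754535 to 77794485, plus strand) and whose modifier subunit is Gclm (chromosome 3, 122245557 to 122270732, plus strand). Gclc had 57.9, 60.6 and 60.9 CPM in Mock, 124, 114 and 120 CPM in Auxin, and 96.1, 103 and 96.5 CPM in Reintroduction. No 2 groups overlapped, and the Reintroduction libraries stayed nearer to Auxin than to Mock. Gclc rose 2.00-fold in Auxin, which is 1.00 log2 units (SE 0.05, adjusted p = 2.2e-08), fell by 0.28 log2 units after the washout (SE 0.05, adjusted p = 0.00113) and was 0.72 above Mock in Reintroduction (SE 0.05, adjusted p = 6.47e-07).

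Gclm followed with 86.9, 86.9 and 83.5 CPM in Mock, 117, 104 and 114 CPM in Auxin, and 119, 121 and 121 CPM in Reintroduction. Both treated groups lay above Mock, and Auxin replicate 2 was the lowest of the 6 treated libraries. The log2 fold change was 0.38 in Auxin (SE 0.06, adjusted p = 7.49e-05) and 0.49 in Reintroduction against Mock (SE 0.06, adjusted p = 1.48e-05). Between Auxin and Reintroduction it was 0.11 and not called (95% interval -0.01 to 0.23, adjusted p = 0.124). These Gclm values are uncertain in 2 ways. Its exons span 6.29 kb, and with the length trend removed the Auxin value was 0.04 (adjusted p = 0.414), with total counts 0.59 and with length and GC trends removed -0.05 (adjusted p = 0.416); the value in Reintroduction against Mock was then 0.20 and -0.0045 (adjusted p = 0.00245 and 0.947), while the length correction alone gave a call after the washout (0.16, adjusted p = 0.0145). Its exons also share 296 bases, 4.71% of their length, with Gm17494 on the opposite strand. They hold a stretch 97.9% identical over 287 bases to Ppia, a highly expressed housekeeping gene. A stretch of 244 bases is 100% identical to Gm10123, which had 1019247 counts over all libraries beside 72267 for Gclm. In all, 118 near copies of Gclm stretches were found, so counts could be split among them. They include Gm17494 and Gm6061, which overlap the exons of Gclm itself. Gm6061 shares 244 bases with the Gclm exons on the same strand, 3.88% of their length, and had 0 counts. Whether the matches to Ppia and Gm10123 fall on the same stretch was not tested.

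Glutathione reductase, Gsr (chromosome 8, 33652523 to 33698163, plus strand), returns oxidised glutathione to its reduced form with NADPH. It moved the other way. Mock libraries had 229.9, 219.1 and 215.3 CPM, Auxin libraries 153, 176 and 145 CPM and Reintroduction libraries 191, 200 and 195 CPM. The 3 groups did not overlap, with Reintroduction between the others. Gsr fell by 0.49 log2 units in Auxin (SE 0.07, adjusted p = 5.97e-05) and rose by 0.31 after the washout (SE 0.07, adjusted p = 0.00334). With total counts the Auxin value was -0.28. The remaining difference of Reintroduction from Mock was -0.18 (SE 0.07, adjusted p = 0.0358), and it lost its call with total counts (-0.05), with the length trend removed (-0.12), with length and GC trends removed (-0.05) and without Mock replicate 1 (-0.18), Reintroduction replicate 1 (-0.19) or Reintroduction replicate 2 (-0.20).

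G6pdx (chromosome X, 74409483 to 74429194, minus strand) encodes glucose-6-phosphate dehydrogenase, which opens the pentose phosphate pathway and supplies the NADPH that Gsr and Txnrd1 consume. It had 58.8, 57.7 and 59.3 CPM in Mock, 27.8, 30.1 and 26.9 CPM in Auxin, and 35.9, 35.6 and 36.5 CPM in Reintroduction. All Mock libraries were above all others, and the Auxin libraries were lowest. G6pdx fell by 1.05 log2 units in Auxin (SE 0.05, adjusted p = 1.65e-08), the largest fall among the 10 genes in that comparison, and 11.2% of all genes tested had a value at least as low. It rose by 0.35 after the washout (SE 0.05, adjusted p = 0.000289) and remained below Mock, at -0.70 log2 units (SE 0.05, adjusted p = 8e-07). G6pdx is 93.2% identical over 2332 bases to the retrogene G6pd2 and shares 13.6% of its exon length with Ikbkg on the opposite strand. G6pd2 had 37.8, 20.2 and 25.5 mean CPM in Mock, Auxin and Reintroduction, and with its counts added the 3 G6pdx values were -0.99, 0.34 and -0.65, each still called.

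Gpx4 (chromosome 10, 80047166 to 80056439, plus strand) is the selenoenzyme that uses glutathione to reduce lipid hydroperoxides in membranes. It had 48.6, 39.0 and 39.0 CPM in Mock, 74.1, 91.3 and 75.8 CPM in Auxin, and 61.3, 64.2 and 63.8 CPM in Reintroduction. The groups did not overlap, although Mock replicate 1 and Auxin replicate 2 each lay above the rest of their groups. The log2 fold change was 0.93 in Auxin (SE 0.10, adjusted p = 5.87e-06), -0.35 after the washout (SE 0.10, adjusted p = 0.012) and 0.58 in Reintroduction against Mock (SE 0.10, adjusted p = 0.000327). With length and GC trends removed the last value was 0.91. Gpx4 is 99.7% identical over 762 bases to Gpx4-ps2, which has no count of its own in the tables analysed, so its values are uncertain to that extent.

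The thioredoxin branch is represented by Txnrd1 (chromosome 10, 82859206 to 82897724, plus strand), the cytosolic selenoenzyme that reduces thioredoxin, and by Srxn1 (chromosome 2, 152105516 to 152111376, plus strand), sulfiredoxin, which repairs over-oxidised peroxiredoxins. Txnrd1 had 301, 301 and 302 CPM in Mock, 377, 397 and 354 CPM in Auxin, and 449, 469 and 480 CPM in Reintroduction. It stepped up in each group without overlap. Its log2 fold change was 0.32 in Auxin against Mock (SE 0.05, adjusted p = 0.000268), a further 0.31 after the washout (SE 0.05, adjusted p = 0.000703) and 0.63 in Reintroduction against Mock (SE 0.05, adjusted p = 2.03e-06). With total counts the value in Auxin was 0.53.

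Srxn1 showed the largest rise of the 10 genes in Auxin. It had 36.1, 32.8 and 32.1 CPM in Mock, 82.3, 89.8 and 79.6 CPM in Auxin, and 55.4, 51.0 and 54.5 CPM in Reintroduction. Every Auxin library was above every Reintroduction library, and these were above every Mock library. Srxn1 rose 2.49-fold in Auxin, by 1.32 log2 units (SE 0.07, adjusted p = 1.5e-08), where 15.0% of all genes tested rose at least as much. It fell by 0.65 log2 units after the washout (SE 0.07, adjusted p = 1.32e-05), and Reintroduction stood 0.67 above Mock (SE 0.07, adjusted p = 5.69e-06).

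Nqo1 (chromosome 8, 107388225 to 107403206, minus strand), the quinone reductase most often read as an NRF2 target, was not called in any comparison. It had 86.1, 81.5 and 82.6 CPM in Mock, 74.8, 85.0 and 72.8 CPM in Auxin, and 75.6, 74.8 and 80.5 CPM in Reintroduction. Auxin replicate 2 lay within the Mock range, and the Auxin and Reintroduction ranges overlapped, while the Reintroduction libraries lay just below the Mock libraries. The log2 fold change was -0.11 in Auxin (95% interval -0.25 to 0.04, adjusted p = 0.162), -0.01 after the washout (95% interval -0.15 to 0.13, adjusted p = 0.91) and -0.12 in Reintroduction against Mock (95% interval -0.26 to 0.03, adjusted p = 0.134). These intervals leave room for falls of at most 0.26 and rises of at most 0.13. The direction depended on the processing: without Auxin replicate 2 the Auxin value was -0.18 and called (adjusted p = 0.00317), as was Reintroduction against Mock (-0.14, adjusted p = 0.0104), whereas with the length trend removed the Auxin value was 0.14 and called higher (adjusted p = 0.0298), and with total counts it was 0.10.

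Hmox1 (chromosome 8, 75093591 to 75100596, plus strand) encodes haem oxygenase, which breaks haem down to biliverdin, iron and carbon monoxide and is held down by the repressor BACH1. It had 154, 140 and 145 CPM in Mock, 210.0, 235 and 207 CPM in Auxin, and 87.5, 78.8 and 82.7 CPM in Reintroduction. The groups did not overlap, and it was the only one of the 10 genes called above Mock in Auxin and below Mock in Reintroduction. Hmox1 rose by 0.57 log2 units in Auxin (SE 0.07, adjusted p = 1.24e-05) and then fell by 1.39 from Auxin to Reintroduction (SE 0.07, adjusted p = 4.78e-08), which left it at -0.82 against Mock (SE 0.07, adjusted p = 1.28e-06). Of all genes tested, 3.72% had a value at least as low after the washout. These directions and calls held under all 20 alternatives.

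**Figure D2:**
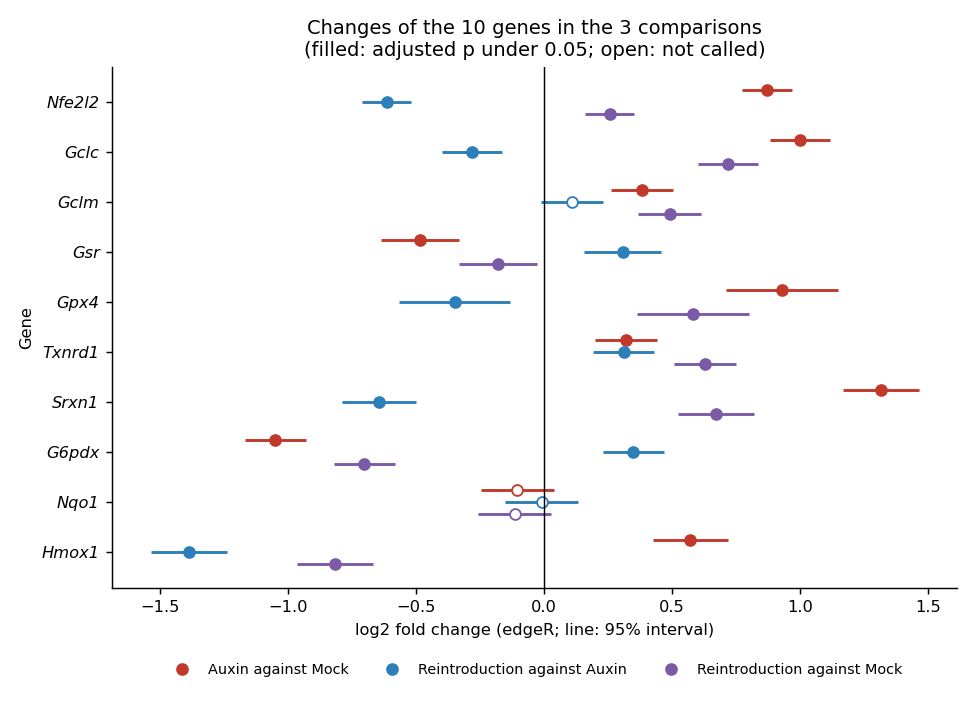
Log2 fold changes (x axis) of the 10 genes (y axis) in Auxin against Mock (red), Reintroduction against Auxin (blue) and Reintroduction against Mock (purple); lines are 95% intervals, filled points have an edgeR adjusted p under 0.05. Srxn1 reached 1.32 and G6pdx -1.05 in Auxin, Hmox1 reached -1.39 after the washout, and the 3 Nqo1 intervals all include 0.

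Levels of different genes were compared per kilobase of exon. In Mock, Txnrd1 was highest with 88.1 ± 0.21 CPM per kb (SD, n = 3), followed by Gsr with 80.4 ± 2.75, Hmox1 with 67.8 ± 3.50 and Nqo1 with 53.7 ± 1.53. Gpx4 with 24.5 ± 3.22 and Nfe2l2 with 23.8 ± 0.12 CPM per kb could not be ordered, since their libraries overlapped, and G6pdx (19.0 ± 0.26), Gclc (17.5 ± 0.48), Gclm (13.6 ± 0.31) and Srxn1 (11.9 ± 0.76) came last. In Auxin, Txnrd1 with 110.0 ± 6.28 and Hmox1 with 100.6 ± 7.16 CPM per kb overlapped at the top, and G6pdx with 9.18 ± 0.53 was lowest. Gsr, Nqo1, Gpx4 and Nfe2l2 lay between 57.4 ± 5.75 and 43.5 ± 0.41 CPM per kb there, each overlapping its neighbour in the order. In Reintroduction, Txnrd1 stood alone with 136 ± 4.50 CPM per kb and Gsr followed with 70.9 ± 1.5. The pairs Hmox1 and Gpx4, Gclc and Nfe2l2, and Gclm and Srxn1 overlapped there, and G6pdx was again lowest with 11.7 ± 0.14 CPM per kb. These places of G6pdx leave out the counts of G6pd2. The retrogene G6pd2 had 37.8, 20.2 and 25.5 mean CPM in Mock, Auxin and Reintroduction, beside 58.6, 28.3 and 36.0 for G6pdx. Reads could be split between both, so the rank of G6pdx is uncertain. The places of Gclm and Gpx4 are uncertain too, given their near copies. The length trend that moved with the groups was not removed from these levels.

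Removing trends with length and GC content, or scaling to total counts, changed members unequally, as the plot of fold changes by processing choice shows. Gclm, with the longest exon sequence of the 10 genes, and Nqo1, with the shortest (1.55 kb), changed sign under at least 1 of these settings.

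**Figure D3:**
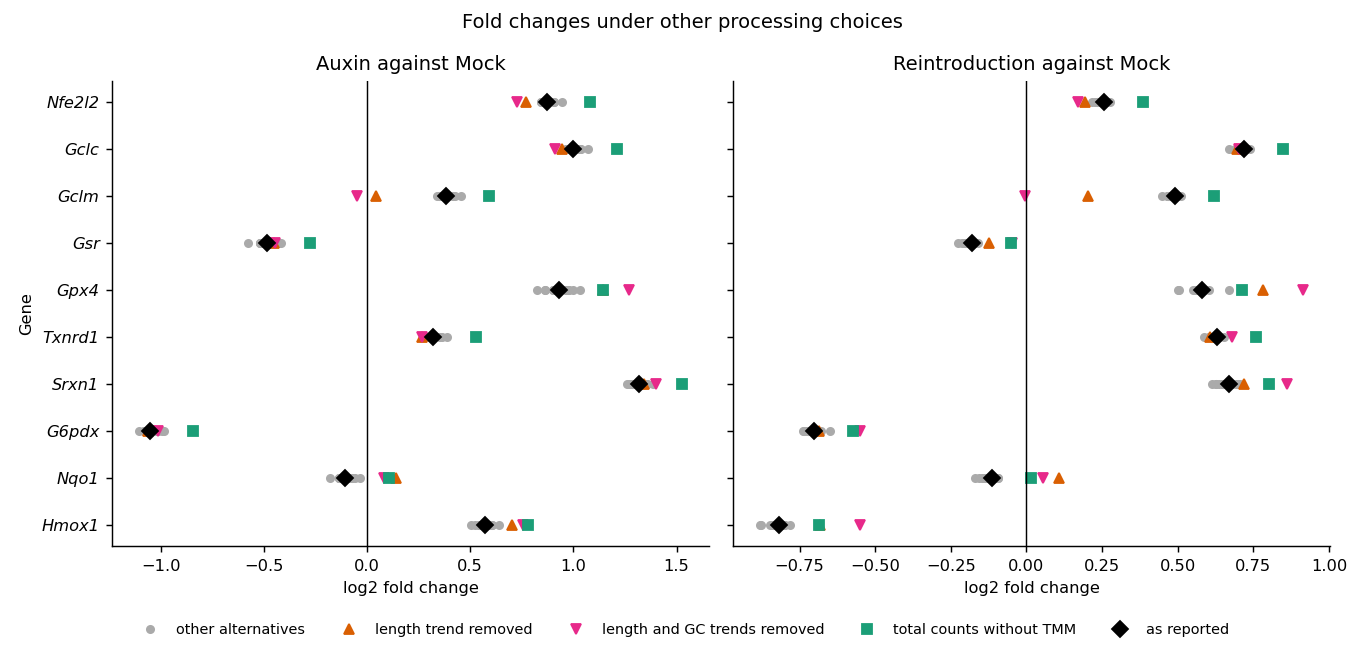
Log2 fold changes (x axis) of the 10 genes (y axis) in Auxin against Mock (left) and Reintroduction against Mock (right) as reported (black diamonds), with the length trend removed (orange), with length and GC trends removed (pink), with total counts in place of TMM scaling (green) and under the remaining alternatives (grey). Gclm and Nqo1 crossed 0 and the other 8 genes kept their side.

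Further genes of the pathway were read from 8 lists of 103 genes that leave out the 10 members. Of these genes, 98 were tested, and the values of the 3 comparisons share libraries. Beside the list counts below, 38.4% of all genes tested were called higher and 34.8% lower in Auxin against Mock. The shares were 25.5% in each direction after the washout, and 34.7% higher and 33.4% lower in Reintroduction against Mock. The regulators and partners of NRF2 numbered 12, with 8 higher and 1 lower in Auxin against Mock (median 0.70, beside 0.05 over all genes tested), 4 higher and 7 lower after the washout (median -0.26, beside 0.003), and 10 higher and none lower in Reintroduction against Mock (median 0.51, beside 0.03). Keap1, the NRF2 inhibitor, had 35.8 ± 1.18 CPM in Mock and 36.7 ± 1.38 in Auxin (SD, n = 3), a difference that was not called (0.04, SE 0.05, adjusted p = 0.531) and whose sign and call varied with the processing. It rose to 46.7 ± 0.43 CPM in Reintroduction, by 0.35 from Auxin (adjusted p = 0.000205). Bach1, the repressor of Hmox1, had 34.1, 37.7 and 38.3 CPM in Mock, 114, 95.05 and 106 CPM in Auxin and 78.2, 76.8 and 83.1 in Reintroduction. It rose by 1.52 log2 units in Auxin (SE 0.07, adjusted p = 1.09e-08), the group in which Hmox1 was also highest. It fell by 0.40 after the washout (SE 0.07, adjusted p = 0.000817), where Hmox1 fell too. In Reintroduction Bach1 was 1.11 above Mock (adjusted p = 2.82e-07), while Hmox1 was below Mock. A link between Bach1 and Hmox1 was not tested. Sqstm1, an autophagy receptor that binds KEAP1, had 194 ± 5.51 CPM in Mock, 660.1 ± 56.8 in Auxin and 339 ± 16.6 in Reintroduction, with log2 fold changes of 1.77 in Auxin and -0.96 after the washout (adjusted p = 2.25e-09 and 7.94e-07); it shares exon sequence with Mrnip. Nfe2l1, a relative of NRF2 best known for inducing proteasome genes, had 232 ± 4.40, 519 ± 16.9 and 236 ± 8.96 CPM, rising by 1.16 and falling by 1.14 (adjusted p = 5.06e-09 and 2.65e-08). The small MAF genes Mafg and Maff rose in Auxin by 0.84 and 2.18 (adjusted p = 4.33e-08 and 4.55e-09), Maff from a low 2.65 ± 0.21 to 12.1 ± 1.18 CPM. With the length trend removed the Mafg value in Auxin was 0.56. The list count in Reintroduction against Mock also depended on that trend. Mafg was called there at 0.32, but with the trend removed it was 0.09 and not called (adjusted p = 0.104). Nfe2l1 was not called there at 0.02, but with the trend removed it was called lower (-0.19, adjusted p = 0.00976).

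Of 14 further genes of glutathione synthesis, recycling and breakdown, 7 were higher and 6 lower in Auxin (median 0.21, beside 0.05 over all genes). After the washout 3 were higher and 5 lower (median -0.12, beside 0.003). In Reintroduction against Mock 3 were higher and 8 lower (median -0.28, beside 0.03). Gss, which catalyses the second and last step of synthesis, had 61.6 ± 3.76 CPM in Mock, 34.5 ± 2.17 in Auxin and 61.1 ± 0.47 in Reintroduction. It fell by 0.84 log2 units in Auxin (adjusted p = 3.03e-07) while Gclc rose, and it rose by 0.83 after the washout (adjusted p = 1.36e-06); it shares exon sequence with Acss2. Slc7a11, the cystine importer, had 16.3, 16.8 and 15.8 CPM in Mock, 33.1, 21.2 and 36.6 CPM in Auxin and 8.14, 8.18 and 7.79 in Reintroduction. Auxin replicate 2 was again the library nearest to Mock. Its rise of 0.89 in Auxin (SE 0.15, adjusted p = 0.000279) was lost with the length trend removed (0.15, adjusted p = 0.196) and with length and GC trends removed (0.05, adjusted p = 0.519), and its exons span 13922 bases. It fell by 1.92 log2 units after the washout (SE 0.16, adjusted p = 2.99e-06). Slc3a2, the chain that carries Slc7a11 to the membrane, had 199.6 ± 12.2, 412 ± 42.0 and 155 ± 8.02 CPM, rising by 1.05 and then falling by 1.41 (adjusted p = 3.02e-07 and 1.39e-07). Chac1, which cleaves glutathione, changed most among the list genes named here. It had 0.990, 0.724 and 0.699 CPM in Mock, 60.3, 73.3 and 60.4 CPM in Auxin and 0.439, 0.245 and 0.282 in Reintroduction, with log2 fold changes of 6.30 and -7.59 (SE 0.15 and 0.18, adjusted p = 1.36e-10 and 3.99e-10). Like Hmox1, Slc7a11, Slc3a2 and Chac1 were lower in Reintroduction than in Mock, by log2 fold changes of -1.02, -0.37 and -1.29 (adjusted p = 0.000183, 0.00148 and 0.000557). The Slc7a11 value was -1.95 with length and GC trends removed, and the Slc3a2 value -0.24 with total counts.

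The thioredoxin, peroxiredoxin and sulfiredoxin partners moved mostly opposite to Txnrd1 and Srxn1 in Auxin. Of 13 genes, 2 were higher and 8 lower in Auxin (median -0.79, beside 0.05 over all genes). After the washout 8 were higher and 1 lower (median 0.30, beside 0.003). In Reintroduction against Mock 3 were higher and 9 lower (median -0.64, beside 0.03). Txn1, the thioredoxin that Txnrd1 reduces, had 131, 124 and 123 CPM in Mock, 61.1, 90.5 and 60.1 CPM in Auxin and 96.3, 104 and 86.6 in Reintroduction, and the change in Auxin was -0.84 log2 units (SE 0.14, adjusted p = 0.000191), or -0.50 with the length trend removed. Prdx2, a peroxiredoxin and substrate of sulfiredoxin, fell by 1.78 log2 units in Auxin, from 140 ± 10.7 to 41.0 ± 5.42 CPM (SE 0.09, adjusted p = 1.29e-08), and had 50.5 ± 0.26 CPM in Reintroduction. Its exons overlap Junb and Rnaseh2a. The 2 genes that rose in Auxin were Txnip, the thioredoxin inhibitor, by 2.27 from 119 ± 4.96 to 572 ± 37.7 CPM (adjusted p = 2.29e-10), and Txnrd3, by 0.27 (adjusted p = 0.00404; with total counts 0.48). Txnip fell by 1.82 log2 units after the washout (adjusted p = 3.69e-09) and shares exon sequence with Gm15441.

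The list named NADPH supply leaves out G6pdx and holds 11 genes, among them further pentose phosphate genes and folate genes. It had 4 higher and 7 lower in Auxin (median -0.69, beside 0.05 over all genes). After the washout 6 were higher and 1 lower (median 0.20, beside 0.003). In Reintroduction against Mock 3 were higher and 6 lower (median -0.19, beside 0.03). Tkt, a transketolase of the pentose phosphate pathway, had 578 ± 30.8, 212 ± 16.2 and 300.4 ± 11.2 CPM and fell by 1.45 log2 units in Auxin (adjusted p = 7.57e-09). Idh1, a cytosolic NADP-dependent dehydrogenase, fell by 1.21 log2 units in Auxin and rose by 1.02 after the washout (adjusted p = 9.87e-09 and 1.69e-07). Mthfd2, a mitochondrial folate enzyme, went the other way, from 83.5 ± 3.01 to 289 ± 27.0 and then 48.9 ± 1.62 CPM, with log2 fold changes of 1.79 and -2.56 (adjusted p = 2.11e-09 and 1.14e-09).

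The other 4 lists were mixed in Auxin, as the plot of called shares by list shows. Glutathione peroxidases and transferases (18 tested of 21) had 7 higher and 6 lower. Superoxide, catalase, haem and iron genes (10 tested of 11) had 4 higher and 4 lower. Further NRF2 targets (11 tested of 12) had 5 higher and 4 lower. The selenoprotein synthesis list (9 genes, with the selenoproteins Selenop, Selenow and Selenot among them) had 1 higher and 3 lower. The medians of the 4 lists in Auxin against Mock were 0.03, 0.02, 0.08 and 0.04, beside 0.05 over all genes tested. In Reintroduction against Mock the same lists had 5, 3, 4 and 2 genes higher and 10, 5, 6 and 4 lower, with medians of -0.35, -0.22, -0.40 and -0.15. The selenoprotein list had 4 called genes in Auxin but 9 with total counts, and the superoxide and haem list 8 in Reintroduction against Mock but 3 with the length trend removed. Among them Gsta3, a glutathione transferase, fell by 2.12 log2 units in Auxin, from 23.9 ± 1.80 to 5.49 ± 0.45 CPM (adjusted p = 1.86e-09). Blvrb, which takes part in reducing haem breakdown products, rose by 1.11 in Auxin (adjusted p = 3.29e-07) and stood 1.33 above Mock in Reintroduction (adjusted p = 1.98e-07), the group in which Hmox1 was lowest. Nqo2, a relative of Nqo1, fell by 1.88 log2 units in Auxin and rose by 1.31 after the washout (adjusted p = 1.84e-09 and 1.2e-07), and it shares exon sequence with Serpinb6a. Cbr3, a carbonyl reductase, was not called in Auxin (-0.13, adjusted p = 0.171) and rose by 1.16 after the washout (adjusted p = 7.84e-07), from 18.4 to 41.1 mean CPM. Its Auxin value was called lower without Auxin replicate 2 (-0.19, adjusted p = 0.0334) and called higher with the length trend removed (0.19, adjusted p = 0.0241) or length and GC trends removed (0.28, adjusted p = 0.00111). Sephs1 and Selenow fell in Auxin by 0.66 and 0.82 log2 units (adjusted p = 3.69e-07 and 2.19e-06), whereas Sepsecs, which makes selenocysteine on its tRNA, rose by 0.76 (adjusted p = 4.13e-06). With length and GC trends removed these 3 values were -1.01, -0.31 and 0.30, each still called.

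**Figure D4:**
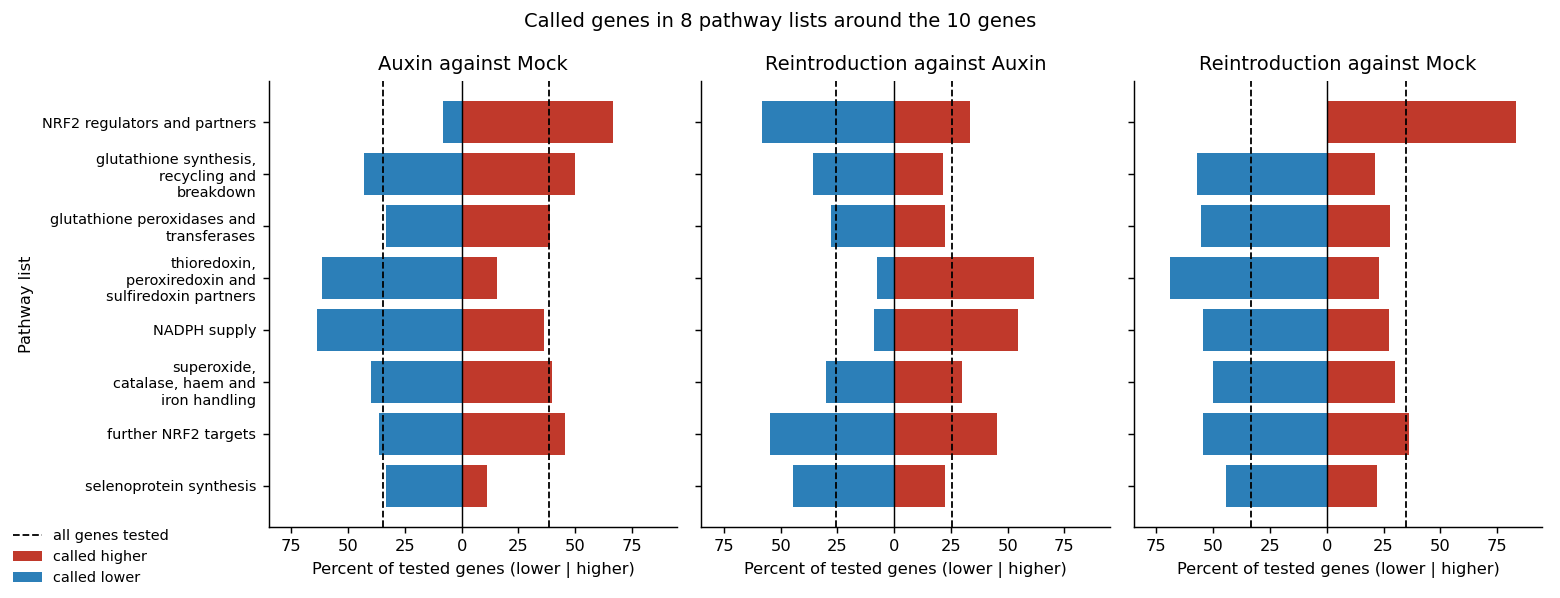
Percent of tested genes called higher (red, to the right) and lower (blue, to the left) in each of 8 pathway lists (y axis) in the 3 comparisons; dashed lines give the same percents over all genes tested. NRF2 regulators had 8 of 12 genes higher in Auxin and 10 of 12 in Reintroduction against Mock, and thioredoxin partners had 8 of 13 lower in Auxin.

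For the 8 members called in all 3 comparisons, which leaves out Gclm and Nqo1, the genes with the nearest pattern were sought. The measure was the Euclidean distance between centred log2 CPM over the 9 libraries. The 10184 other tested genes compared averaged 5 CPM or more. Genes without a symbol, or with a Gm number or Rik name, were left out. For Nfe2l2 the nearest were Atp6ap2, Pacs2 and Cdyl2, at distances of 0.11, 0.11 and 0.12. For Gclc the nearest were Rab14, Nlk and Arsk, at 0.09, 0.10 and 0.10. Gsr was nearest to Ptpn1, Ezr and Eef1e1 (0.06, 0.10 and 0.10), and G6pdx to Gart, Dnmt1 and Ipo5 (0.09, 0.09 and 0.10). Txnrd1 was nearest to Acsl1, Dusp7 and Mcfd2 (0.13, 0.13 and 0.14), and Srxn1 to Homez, Psap and Soat1 (0.15, 0.16 and 0.17). For Hmox1, Gnpda1 (0.16) was about as near as the genes named for Srxn1, while Yars and Mbd6 were farther away (0.21 and 0.25). The nearest genes of Gpx4, Agpat3, Cln8 and Cd63-ps, were also farther away (0.24, 0.25 and 0.25). Yars had 123, 201 and 73.4 mean CPM in Mock, Auxin and Reintroduction, and Gnpda1 had 104, 146 and 58.4, each highest in Auxin and lowest in Reintroduction as Hmox1 was.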

How the data were processed

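Paired-end reads of 75 bases were deposited as count tables of 48440 genes by the authors: per the file headers, featureCounts 2.0.6 assigned reads to the exons of an mm10 annotation, ignoring strand and counting both mates. The submitters' processing notes also list Trim Galore 0.6.10, Bowtie2 2.5.3 and SAMtools 1.20, with no roles. Because strand was ignored, a gene and its antisense partner cannot be told apart.

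Counts were normalised by TMM and tested in edgeR 4.0.16 (R 4.3.3) by the quasi-likelihood test over all 9 libraries, after its default filter on low counts (20838 genes tested), with Benjamini-Hochberg adjustment over all of them. CPM are counts per 1000000 TMM-scaled counts. The common biological coefficient of variation was 9.15% on 6 residual degrees of freedom. The p-values measure the spread among these libraries only. Near copies were sought with blastn 2.17.0 at 90% identity over 150 bases or more.

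All 10 genes were named in all comparisons; of each pathway list, the 2 genes with the smallest p in Auxin against Mock and in Reintroduction against Auxin could be named, besides Keap1, Bach1, Nfe2l1, Mafg, Slc7a11, Chac1, Txn1 and Gss. The members and lists were chosen with earlier results of these data known. The 9 pairs of libraries with the same replicate number had correlations of -0.546 to 0.45 between their deviations from the group means, so numbers were not taken to pair libraries. Pairs with different numbers reached 0.652 (Mock replicate 1 with Auxin replicate 2) and -0.589 (Mock replicate 1 with Auxin replicate 3). What these libraries share was not modelled, and its source was not tested. The alternatives were DESeq2 (1.42.0) size factors and Wald test, total counts, other filters, the compared groups alone, a replicate block, halved counts, removal of length and GC trends, leaving out each library, and, chosen after seeing the data, adding G6pd2 counts to G6pdx. The code was tested on simulated counts. Promoter windows of Hmox1, Gclc and Gsr were not used here.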

Additional observations from a re-analysis of the deposited data

How the results depend on the processing

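Of 600 fold changes of the 10 genes recomputed under 20 alternatives, 580 kept their direction and their side of the threshold, and the number of members called stayed within 1.5 times the reported one in all 180 cases; 9 fold changes lost and 4 gained a call, and 10 changed sign, 3 of which are also among the lost and gained calls. The replicate block gave 14808, 9829 and 13639 called genes in Auxin against Mock, Reintroduction against Auxin and Reintroduction against Mock, in place of 15257, 10613 and 14191, and changed no call on a member; of the list genes named it ended the call on Blvrb after the washout (0.2268, adjusted p = 0.0525). The following log2 fold changes turned sign, and apart from the construction of each setting the cause was not tested. In Auxin against Mock, total counts gave Nqo1 0.1045, Cbr3 0.0808 and Sephs2 0.1559, a minimum of 1 CPM in 3 libraries gave Sephs2 0.0145, removal of the length trend gave Nqo1 0.1388, Keap1 -0.1566, Cbr3 0.1922 and Sephs2 0.0759, and removal of length and GC trends gave Gclm -0.0510, Nqo1 0.0808, Keap1 -0.0338, Cbr3 0.2771 and Sephs2 0.1102. Leaving out single libraries gave Keap1 -0.0030 to 0.0567, below 0 without Mock or Auxin replicate 2. In Reintroduction against Auxin, Oplah was 0.0054 with DESeq2 size factors, 0.0033 without a filter, 0.0069 in the DESeq2 Wald test, 0.0449 without the length trend and 0.1018 without length and GC trends; leaving out single libraries gave Oplah -0.0364 to 0.0251, above 0 without Auxin replicate 3 or Reintroduction replicate 2, and Nqo1 -0.0550 to 0.0451, above 0 without Auxin or Reintroduction replicate 2. In Reintroduction against Mock, total counts gave Nqo1 0.0151, Gss 0.1190 and Fech 0.0521, the 1 CPM minimum gave Gss 0.0094, removal of the length trend gave Nqo1 0.1085, Nfe2l1 -0.1932 and Sepsecs -0.0807, and removal of length and GC trends gave Gclm -0.0045, Nqo1 0.0539, Nfe2l1 -0.0054 and Sepsecs -0.1926. Leaving out single libraries gave Gss -0.0663 to 0.0142, above 0 without Mock replicate 1, and Nfe2l1 -0.0291 to 0.0459, below 0 without Mock replicate 1 or 3 or Reintroduction replicate 3. Of 1920 fold changes of named list genes, 1846 kept direction and side, 32 lost and 20 gained a call, and 29 changed sign, with some counted in both ways; Sepsecs without length and GC trends (adjusted p = 0.00648) was called in both directions; 5 of 480 counts of called list genes moved by more than 1.5 times.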
